A study of Homo sapiens with 27 samples.

Results

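Gene counts from RNA sequencing of REH cells were used to describe how the transcriptome with an LNA GapmeR of any sequence differed from that with medium alone. REH is a human leukemia cell line of B-cell precursor type (BCP-ALL), positive for the ETV6/RUNX1 fusion. The cells were kept in RPMI with fetal bovine serum, glutamine and antibiotics, and were harvested 72 h after medium or 10 µM of a GapmeR was added. The comparison took 17 GapmeR samples and 2 medium samples from the 27 samples of the series, because replicate number 3 has no medium sample. The 9 GapmeRs were a non-targeting control (NTC) and a pair, GapmeR1 and GapmeR2, against each of 4 lncRNAs, namely lnc-ASTN1-1, lnc-RTN4R-1, lnc-NKX2-3-1 and lnc-TIMM21-5. Each had 2 samples, numbered 1 and 2, except lnc-ASTN1-1 GapmeR2, which had 1. According to the methods, the GapmeRs entered the cells by gymnosis in multi-well plates and the replicates were executed on separate days. All samples come from 1 cell line, and the labels do not give further detail of how the cultures differed. Of 15953 genes tested, 2433 (15.3%) lay on the same side of medium with all 9 GapmeRs, 1292 (8.1%) above it and 1141 (7.15%) below it. The side of a gene was the sign of its mean log2 difference from the medium sample of the same replicate number. These 2433 genes are called same-side genes below. The side is the selection itself and is given without a test. All 9 GapmeRs share the same 2 medium samples, so a gene unusual in those samples can lie on the same side with every GapmeR. The share of same-side genes is therefore no measure of the size of a common response.

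LNA GapmeRs are antisense oligonucleotides in which a central gap of DNA is flanked by locked nucleic acid (LNA) bases. RNase H cuts the RNA that pairs with the gap. In gymnosis no transfection reagent is used: the naked oligonucleotide is taken up by endocytosis, passes through endosomes and lysosomes, and only a part of it reaches the cytosol and nucleus. Endosomal Toll-like receptors and cytosolic sensors can recognise nucleic acids, TLR9 in particular DNA with unmethylated CpG dinucleotides. Immediate-early genes are transcription factors and feedback regulators whose transcripts rise quickly and briefly after many kinds of stimulus, and ERK signalling is one of the routes to them.

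The oligonucleotide sequences are shown because they are what the 9 treatments do not share. Letters in capitals mark CpG dinucleotides, and all are written 5′ to 3′ as in the study's list of GapmeRs.
NTC: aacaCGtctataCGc
lnc-TIMM21-5 GapmeR1: aattttgcatttggta
lnc-TIMM21-5 GapmeR2: gtcactttaattttgc
lnc-NKX2-3-1 GapmeR1: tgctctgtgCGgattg
lnc-NKX2-3-1 GapmeR2: ctgatttttagtagtg
lnc-RTN4R-1 GapmeR1: gcattcatgggttaag
lnc-RTN4R-1 GapmeR2: tgctgagacatctagg
lnc-ASTN1-1 GapmeR1: taatctgccaggagtg
lnc-ASTN1-1 GapmeR2: gtctgaagtaatgga
They were 15 or 16 bases long. NTC held 2 CpG dinucleotides, lnc-NKX2-3-1 GapmeR1 held 1, and the other 7 held none. The longest stretch that any 2 of them had in common was 8 bases, between both GapmeRs against lnc-TIMM21-5, and every other pair had at most 5 in common.

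Total counts ran from 14627110 to 22542504 per sample and were 18846647 and 18659467 in medium. Of the 11 B-cell precursor markers checked, 10 were expressed in all samples, with a summed level of 5851 and 6135 CPM (counts scaled to library size) in medium and 5355 to 6749 CPM with GapmeRs, while VPREB1 was at 0 throughout. Markers of T cells, erythroid cells and platelets did not pass the low-count filter, and CD3D, HBA1, HBB, PPBP and PF4 were at 0 in all samples. MPO, listed as a myeloid marker, was at 78.5 to 291 CPM. The other myeloid markers were far lower, LYZ at 0 to 0.345, CD14 at 0.148 to 0.660 and CSF1R at 0.336 to 2.54 CPM. Of the stromal or epithelial markers, COL1A1 was at 6.04 to 11.7 CPM and EPCAM was at 0. Each target lncRNA was lower with its own GapmeRs than in medium: lnc-RTN4R-1 (LINC02891) was at 5.00 to 6.36 CPM with its own GapmeRs, 18.9 and 24.1 CPM in medium and 13.7 to 23.0 CPM with the other GapmeRs. lnc-ASTN1-1 (ENSG00000227579) was at 9.67 to 14.4, 26.7 and 24.6, and 15.5 to 26.7 CPM in the same order. lnc-TIMM21-5 (NETO1-DT) was at 0.106 to 0.495, 1.06 and 2.17, and 0.874 to 2.59 CPM. lnc-NKX2-3-1 (ENSG00000228778) was at 0.0517 to 0.182, 0.903 and 1.25, and 0.371 to 0.920 CPM, with at most 4 counts per sample under its own GapmeRs. In these bulk samples fewer cells of a kind and less RNA per cell cannot be told apart.

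The first question was whether a gene differed between GapmeR and medium samples when the spread among the 9 GapmeRs was counted as error. In this pooled edgeR quasi-likelihood test, with the replicate number as a block, no gene had an adjusted p-value under 0.05 (0 of 15953, 0%). The lowest adj. p-value was 0.0885, for IL4R. At an unadjusted p-value under 0.05 there were 845 genes (5.3%), 565 higher (3.54%) and 280 lower (1.76%). DESeq2 with the same design called 15 genes (0.094%), 13 higher (0.0815%) and 2 lower (0.0125%). A separate fit gave each GapmeR its own coefficient, so that only the spread between samples of the same GapmeR was error, and compared the mean of the 9 with medium. This group fit called 799 genes (5.01%), 365 higher (2.29%) and 434 lower (2.72%). Of these, 279 higher (1.75% of genes tested) and 222 lower genes (1.39%) were also same-side genes, 501 in all (3.14%). They are called the 501 genes below, and this set was not planned in advance. The fold changes of the 501 genes were small, with a median log2 difference of 0.32 (1.25-fold) for those higher. The median size was 0.27 (1.21-fold) for those lower, and only 11 and 10 reached a log2 size of 1. The call depended on both medium samples and on the block: without medium replicate 1 the group fit called 234 same-side genes, without medium replicate 2 it called 137, and without the replicate block 177, of which 218, 132 and 177 were among the 501.

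Because replicates 1 and 2 share no sample, each gives its own account of GapmeR against medium. In replicate 1, 1256 genes were above medium in all 9 GapmeR samples, and 350 of them (27.9%) were above medium in all 8 GapmeR samples of replicate 2, against 10.4% of all tested genes. Another 49 (3.9%) were below medium in all 8, against 9.63% of all genes. In the other direction, 1169 genes were below medium in all 9 samples of replicate 1, and 235 of them (20.1%) were below in all 8 of replicate 2, while 58 (4.96%) were above in all 8. All GapmeR samples of a replicate are set against 1 medium sample, so a gene that was unusual in that medium sample lies on the same side in all of them. Across all tested genes the mean difference in replicate 1 and that in replicate 2 had a Pearson r of 0.23 (Spearman rho 0.29), and 0.55 (0.43) for the 10791 genes with a mean of at least 5 CPM. Genes are not independent replicates, and these values carry no test. In both replicates together, 585 genes (3.67%) lay on the same side in every GapmeR sample, 350 above (2.19%) and 235 below (1.47%).

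**Figure D1:**
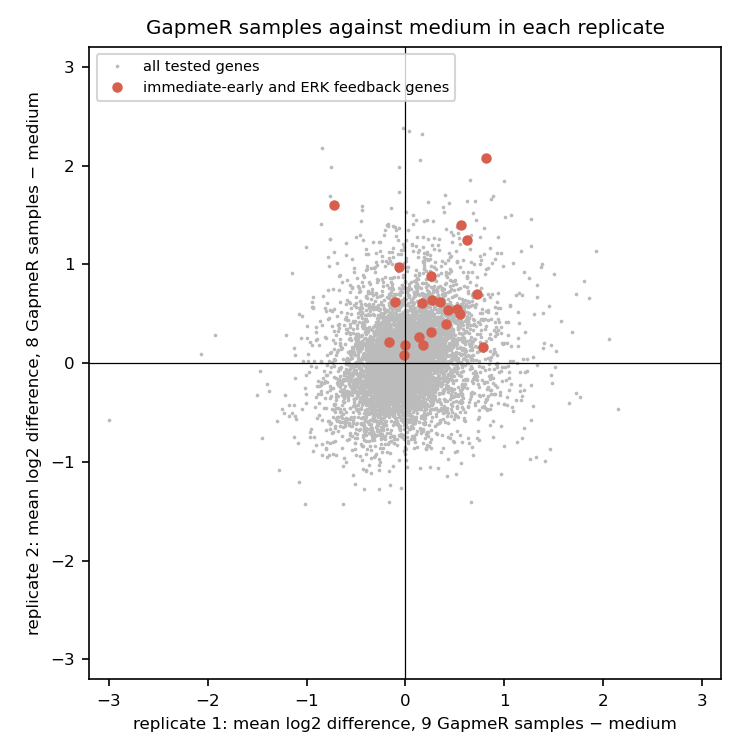
Mean log2 difference from the medium sample in replicate 1 (x axis, 9 GapmeR samples) against replicate 2 (y axis, 8 GapmeR samples) for 15953 tested genes in grey and 22 immediate-early and ERK feedback genes in red. All 22 red points lie above 0 on the y axis and 16 lie to the right of 0 on the x axis.

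IL4R, DENND3, CD69 and SH3TC1 were among the genes closest to a call in the pooled test. IL4R (chromosome 16, 27313668 to 27364778), the interleukin-4 receptor alpha chain, was at 8.13 and 8.41 CPM in medium. With GapmeRs its lowest level was 10.9 CPM in an NTC sample and its highest 13.8 CPM, with a median of 11.97 CPM. The 2 groups of samples did not overlap, as for 242 genes in all (1.52% of those tested), 153 higher (0.959%) and 89 lower (0.558%). With only 2 medium samples, some genes can separate in this way without a response. The pooled log2 fold change of IL4R was 0.57 (SE 0.0968), the group fit gave 0.56 (SE 0.0884, adj. p-value 4.26e-05) and DESeq2 an adj. p-value of 0.00204. The fitted differences of single GapmeRs from medium ran from 0.41 for lnc-ASTN1-1 GapmeR2 to 0.70 for lnc-RTN4R-1 GapmeR2, and 7 of 9 passed on their own. NTC was not among those 7 (0.43, adj. p-value 0.235).

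DENND3, an exchange factor for a Rab GTPase of membrane traffic, was at 16.2 and 15.5 CPM in medium and at 20.3 to 30.6 CPM with GapmeRs (median 24.0). CD69, an early activation antigen of lymphocytes, was at 24.2 and 15.6 CPM in medium and at 24.3 to 37.3 CPM with GapmeRs (median 30.8). Its lowest GapmeR sample was thus level with medium replicate 1, and it stood apart from the medium sample of its own replicate number. SH3TC1 was at 25.6 and 21.7 CPM in medium, from 29.6 CPM in NTC to 51.2 CPM in lnc-RTN4R-1 GapmeR1 (median 40.7). The pooled log2 fold changes of DENND3, CD69 and SH3TC1 were 0.61, 0.64 and 0.75, with adj. p-values of 0.178, 0.178 and 0.231. In the group fit all 3 were higher (adj. p-values 7.9e-07, 3.9e-06 and 1.76e-09), and DESeq2 gave 0.00204 for each.

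The other genes that DESeq2 called higher were ATF3, FOS, JUND, ARRDC3, CYRIA, TUBA4A, SPON2, MIR22HG and PARVG. Each was above the same-numbered medium sample in all 17 GapmeR samples. ARRDC3, an arrestin-domain adaptor that takes part in the endocytosis of receptors, was at 76.2 and 45.1 CPM in medium and 67.1 to 122 CPM with GapmeRs. It was the only gene called higher with NTC that was also called in the group fit and lay on the same side with every GapmeR (NTC log2 difference 0.42, adj. p-value 0.00578). TUBA4A, an alpha-tubulin, went from 3.51 and 4.28 CPM to a median of 6.33 CPM, and its lowest GapmeR sample was at 4.66 CPM. MIR22HG, the host transcript of miR-22, was at 1.22 and 0.597 CPM in medium and at a median of 2.403 CPM with GapmeRs, with overlap between the 2 groups. CYRIA, a regulator of Rac1 and the actin cytoskeleton, stood at 13.5 and 13.2 CPM in medium and between 14.98 and 20.2 CPM with GapmeRs. SPON2, a secreted matrix protein, stood at 6.85 and 5.42 CPM and between 7.65 and 15.2 CPM. These genes were chosen after their values were seen, since the rule for naming the genes with the largest change required a call in the pooled test and found none.

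**Figure D2:**
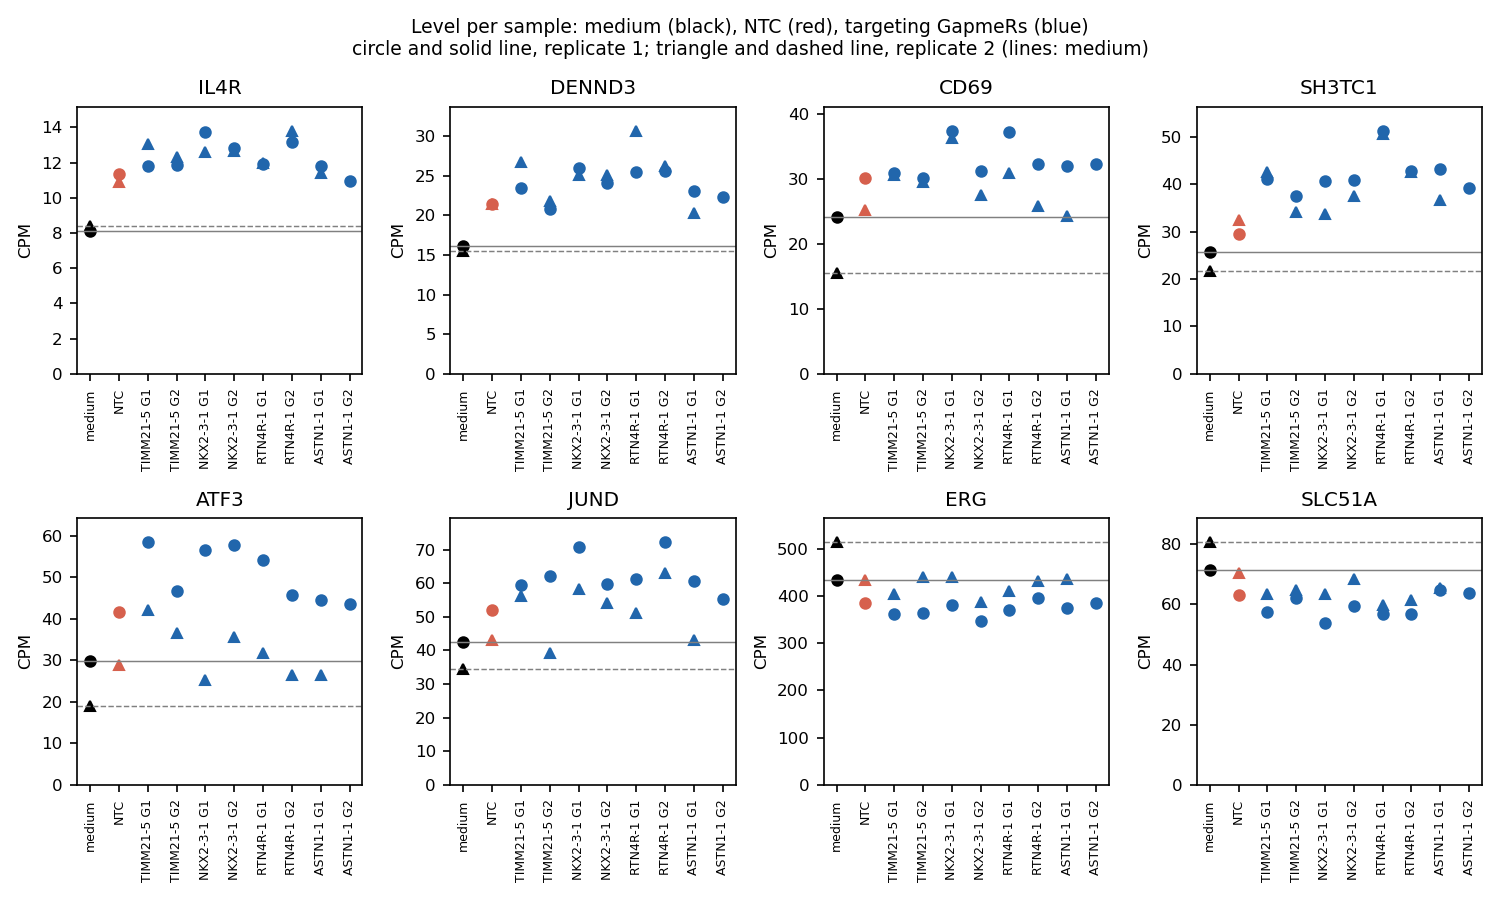
Level in CPM (y axis) of 8 genes in each sample, by treatment (x axis); black, medium; red, NTC; blue, targeting GapmeRs; circles, replicate 1; triangles, replicate 2; the grey lines carry the medium level of each replicate across. IL4R, DENND3 and SH3TC1 lie above both medium samples in all 17 GapmeR samples, ATF3 and JUND above the medium sample of the same replicate only, and ERG and SLC51A below it.

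The immediate-early and ERK feedback genes were the list with the largest share of same-side genes. Of 22 tested members of 26, 15 lay above medium with every GapmeR and 0 below, where 8.1% of all tested genes lay above. The median pooled log2 fold change of the list was 0.45 and that of all tested genes 0.00, and all 22 were positive. The pooled test called none of them (lowest adj. p-value 0.292). The group fit called 7 higher and 0 lower, namely JUNB, JUND, IER2, IER5, ATF3, KLF6 and ZFP36L1, and ZFP36L1 was not a same-side gene. The list was written with earlier results of these data known.

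ATF3, a stress-induced transcription factor of the ATF/CREB family, was at 29.8 and 19.1 CPM in medium and at 25.4 to 58.5 CPM with GapmeRs (median 42.1). Its pooled log2 fold change was 0.74 (SE 0.170) and its group-fit adj. p-value 0.00189. JUND, a partner of FOS in the AP-1 factor, was at 42.5 and 34.4 CPM in medium and at 39.3 to 72.2 CPM with GapmeRs (median 58.2), with a pooled log2 fold change of 0.55 (SE 0.140) and a group-fit adj. p-value of 6.46e-05. For both genes the samples of the 2 groups overlapped, but every GapmeR sample was above the medium sample of its own replicate number. IER5 (immediate early response 5) was at 12.8 and 11.99 CPM in medium and never below 13.7 CPM with GapmeRs, so that it and DUSP4 were the 2 members whose GapmeR samples were all above both medium samples. FOS went from 13.0 and 6.94 CPM to a median of 19.2 CPM, and JUN from 25.5 and 5.64 CPM to a median of 37.6 CPM. The group fit did not call either (adj. p-values 0.0518 and 0.0628).

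The list also differed between the medium samples. In medium, 20 of its 22 genes were lower in replicate 2 than in replicate 1, by a median log2 difference of -0.45, whereas all tested genes had a median of 0.01. For GapmeRs the same median ran from -0.04 with NTC to -0.47 with lnc-ASTN1-1 GapmeR1. EGR1, the most marked case, was at 4.36 and 0.597 CPM in medium and at 1.30 to 3.77 CPM with GapmeRs, and was thus below medium in all 9 GapmeR samples of replicate 1 and above it in all 8 of replicate 2. In replicate 1 the median difference of the list from medium was 0.27, with 16 of 22 genes positive and 7 above medium in all 9 samples. In replicate 2 the median was 0.58, with 22 positive and 13 above medium in all 8 samples. The part of the day or of a single medium culture in these values was not tested.

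**Figure D3:**
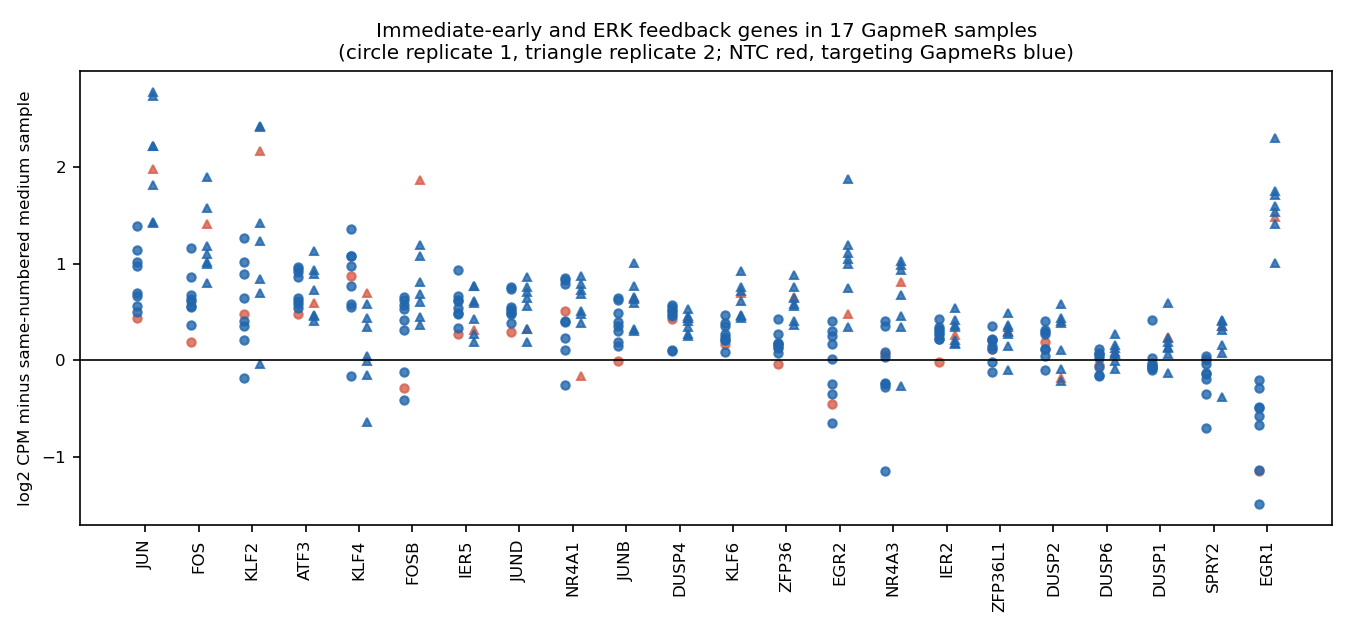
Difference in log2 CPM from the same-numbered medium sample (y axis) of 22 immediate-early and ERK feedback genes (x axis, ordered by their median); each point is 1 of 17 GapmeR samples, circles for replicate 1 and triangles for replicate 2, NTC in red. JUN, FOS, ATF3, IER5, JUND, DUSP4 and KLF6 lie above 0 in every sample, and EGR1 lies below 0 in replicate 1 and above it in replicate 2.

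The median of the list was above medium with each GapmeR separately, all compared with the same 2 medium samples. The median log2 difference was 0.30 with NTC, 0.61 and 0.36 with the GapmeRs against lnc-TIMM21-5, 0.39 and 0.54 with those against lnc-NKX2-3-1, 0.42 and 0.29 with those against lnc-RTN4R-1, and 0.31 and 0.39 with those against lnc-ASTN1-1. The number of its genes called higher was 0 with NTC, 8 and 4, 10 and 9, 7 and 6, and 2 and 0 in the same order. Of all tested genes 0.0125%, 1.37% and 0.445%, 15.9% and 1.48%, 4.28% and 6.73%, and 1.15% and 0.0501% were called higher. With lnc-NKX2-3-1 GapmeR1 1 gene of the list was called lower (15.5% of all genes), SPRY2, a feedback inhibitor of ERK signalling (-0.56, adj. p-value 4.52e-06). Between the targeting GapmeRs and NTC, a comparison without medium, 1 of the 22 genes differed (4.01% of all genes), IER2 (log2 difference 0.19, adj. p-value 0.0286). In that comparison 14 of the 22 were higher with the targeting GapmeRs. Among the 9 GapmeRs 11 of the 22 differed (41.8% of all genes).

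RefSeq promoters (GRCh38.p14, 250 bases before to 50 after the gene start) were found for 21 of the 22 genes and were searched on both strands for the cAMP response element TGACGTCA and the AP-1 site TGACTCA. The cAMP response element was present in 2, those of JUND and DUSP1, which is 9.52% of the 21 against 3.16% of the tested genes and 1.98% of all 27305 promoters. The AP-1 site was in 0 of the 21, against 2.85% of the tested genes and 4.92% of all promoters. Among the higher genes of the 501 with a promoter, the cAMP response element was in 5 of 215 (2.33%) and the AP-1 site in 6 (2.79%). The element is shown in capitals with 10 bases on each side, on the strand of the gene, for a gene that was higher in the group fit and for one that was not called.
JUND, chr19:18281805-18281832, minus strand: gccgcccccaTGACGTCAacccacaagg
DUSP1, chr5:172771303-172771330, minus strand: gcagggcgggTGACGTCAccgccccgtc
DUSP1, a phosphatase that switches off MAP kinases, was at 135 and 121 CPM in medium and at 111 to 183 CPM with GapmeRs (group-fit log2 difference 0.08, adj. p-value 0.412). A match of letters in this window does not show binding.

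The other lists are read against the shares over all tested genes, of which 8.1% lay above and 7.15% below medium with every GapmeR, and of which the group fit called 2.29% higher and 2.72% lower. NF-κB targets, of which 16 of 22 were tested, had 3 same-side genes above medium and 0 below, and a median pooled log2 fold change of 0.21. The 3 were TNF, CXCL8 and IER3, each above the same-numbered medium sample in all 17 GapmeR samples. TNF, the cytokine, was at 12.5 and 9.49 CPM in medium and at 12.1 to 21.3 CPM with GapmeRs (group-fit log2 difference 0.54, SE 0.117, adj. p-value 0.00522). CXCL8, a chemokine for neutrophils, was at 1.59 and 0.814 CPM in medium and at 0.823 to 5.98 CPM with GapmeRs (1.17, SE 0.224, adj. p-value 0.000567). It differed among the GapmeRs as well: it stood 0.45 above medium with NTC and 1.84 above with lnc-RTN4R-1 GapmeR2. The group fit also called LTB (0.19). IER3 is a target of ERK signalling too, so the lists are not separate in function.

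Of the nucleic acid sensing genes, 19 of 23 were tested and 4 were same-side genes, all above medium. TLR9, the receptor for CpG DNA, did not pass the filter, with a mean of 0.00285 CPM. STING1, the adaptor of cytosolic DNA sensing, was at 7.28 and 5.32 CPM in medium and at 8.31 to 26.3 CPM with GapmeRs (median 10.3), with no overlap. Its group-fit log2 difference was 0.81 (SE 0.104, adj. p-value 1.25e-06), while the pooled test gave 0.93 (SE 0.425, adj. p-value 0.936). The level with lnc-NKX2-3-1 GapmeR1, 26.3 and 22.7 CPM, was far above those with the other GapmeRs. The fitted differences ran from 0.32 with lnc-ASTN1-1 GapmeR2 and 0.47 with NTC to 1.96 with lnc-NKX2-3-1 GapmeR1. IRF7, a transcription factor of the interferon response, was at 19.6 and 18.9 CPM in medium and at 18.7 to 27.3 CPM with GapmeRs (group-fit log2 difference 0.27, adj. p-value 0.0300). RIGI, a cytosolic RNA sensor, was at 22.0 and 22.4 CPM in medium and at 23.2 to 26.8 CPM with GapmeRs, a group-fit log2 difference of 0.14 that was not called (adj. p-value 0.222).

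Of 37 interferon-stimulated genes tested, 5 were above medium with every GapmeR (8.1% of all genes) and 1 below (7.15%), and the median pooled log2 fold change was 0.06. The group fit called IFIT2 (0.32), DDX60 (0.41) and IRF1 (0.18) higher (2.29% of all genes) and none lower. Only 1 of these 3 was also a same-side gene, and DDX60 differed from medium by -0.03 with lnc-NKX2-3-1 GapmeR1. With NTC 0 of the 37 genes were called. The most calls came with lnc-RTN4R-1 GapmeR2 (13 higher and 1 lower) and lnc-NKX2-3-1 GapmeR1 (10 higher and 8 lower). These GapmeRs called 13.9% and 31.3% of all genes. The median log2 difference of the 37 genes was 0.21 with lnc-RTN4R-1 GapmeR2 and 0.04 with lnc-NKX2-3-1 GapmeR1. Genes of the lysosome and endosome (35 tested, 3 above and 2 below medium with every GapmeR, median -0.04) and of oligonucleotide binding and cleavage (23 tested, 2 above and 1 below, median -0.02) gave no call in the group fit. RNASEH1, the enzyme that cuts RNA paired with DNA, had a pooled log2 fold change of 0.03.

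Genes of the integrated stress and unfolded protein response had 5 of 28 above medium with every GapmeR (8.1% of all genes) and 0 below. The group fit called 8 higher (2.29% of all genes) and 0 lower, and the median pooled log2 fold change was 0.09. HSPA5 (BiP), the main chaperone of the endoplasmic reticulum, was at 312 and 219 CPM in medium and at 240 to 442 CPM with GapmeRs (median 346), and the group fit gave 0.36 (SE 0.0425, adj. p-value 2.52e-07). PPP1R15A (GADD34), which restores translation after stress, was at 94.9 and 50.1 CPM in medium and at 62.6 to 116 CPM with GapmeRs (0.34, adj. p-value 0.00282). DNAJB9, a co-chaperone of HSPA5, was at 28.6 and 12.4 CPM in medium and at 16.9 to 39.7 CPM with GapmeRs (0.53, adj. p-value 0.000154). The 3 genes were lower in medium replicate 2 than in medium replicate 1, like the immediate-early genes, and none had all GapmeR samples above both medium samples. With lnc-RTN4R-1 GapmeR2 the list moved in both directions, with 7 members called higher and 10 lower, where 6.73% and 7.18% of all genes were called.

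Among p53 targets, 6 of 25 were same-side genes above medium (8.1% of all genes) and 0 below. TNFRSF10B, a TRAIL death receptor, was at 24.5 and 24.8 CPM in medium and at 25.6 to 42.6 CPM with GapmeRs (group-fit log2 difference 0.45, adj. p-value 6.2e-05). CDKN1A (p21), an inhibitor of cyclin-dependent kinases, was at 95.6 and 97.2 CPM in medium and at 101 to 141 CPM with GapmeRs (0.29, adj. p-value 8.1e-05). In both genes the 2 medium samples were within 2 CPM of each other and below every GapmeR sample. The group fit for the mean of the 9 GapmeRs called none of the other 23. With lnc-NKX2-3-1 GapmeR1 12 were called higher and 2 lower, where 15.9% and 15.5% of all genes were. With lnc-RTN4R-1 GapmeR2 7 were called higher (6.73% of all genes), and with NTC 0. The other targeting GapmeRs with 2 samples each called 1 to 3 higher, where 0.445% to 4.28% of all genes were.

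Glycolysis and hypoxia genes had 4 of 28 above medium with every GapmeR, 0 below and 5 called higher, among them PFKL (group-fit log2 difference 0.29). Of 33 cell cycle and DNA replication genes, 3 were above with every GapmeR, a share near the 8.1% of all genes, and 4 were called higher. With single GapmeRs the list was uneven, with 24 called higher and 1 lower with lnc-NKX2-3-1 GapmeR1 (15.9% of all genes higher), 8 higher with lnc-RTN4R-1 GapmeR1 (4.28%) and 0 with NTC. The largest group-fit difference of the 4 was that of KIF20A, a kinesin of cytokinesis, at 86.4 and 86.7 CPM in medium and 91.0 to 130 CPM with GapmeRs (0.25, adj. p-value 7.93e-05). Of 27 ribosome biogenesis genes 4 were below medium with every GapmeR, and of 78 cytosolic ribosomal protein genes 7, the latter a share near the 7.15% of all genes. In both lists 0 were above, and the medians were -0.05 and -0.04. The group fit called 3 of the first, PES1 (-0.16), NAT10 (-0.13) and RBM28 (-0.33), and 1 of the second, RPS25 (-0.36), which was not a same-side gene. Nucleotide salvage and synthesis had 2 above and 5 below of 30, with ADK called lower (-0.20). Cholesterol and fatty acid genes (26 tested), mitochondrially encoded genes (13) and the BCL2 family (12) had no same-side gene. ELOVL6 (-0.24) and BCL2 (-0.13) were called lower in the group fit, and no mitochondrially encoded gene was called.

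Of 32 B-lineage and pre-B receptor genes, 3 were above and 2 below medium with every GapmeR, and the median was 0.01. The group fit called 3 of the 32 higher and 4 lower (2.29% and 2.72% of all genes), of which 1 and 2 were also same-side genes. VPREB3, which associates with the pre-B receptor chains, was 1 of the 4 called lower (group-fit log2 difference -0.29, adj. p-value 0.000259). Heat shock and oxidative stress genes had 4 above and 1 below of 19. The one below was HSPA8, the constitutive Hsc70 chaperone, at 1294 and 1406 CPM in medium and never above 1285 CPM with GapmeRs (-0.18, adj. p-value 0.000603). Of 19 markers of other blood and stromal cells 5 were tested, MPO was called higher (0.33) without being a same-side gene, and PECAM1 was called lower with every GapmeR below medium (-0.42).

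ERG and SLC51A were lower with every GapmeR. ERG (chromosome 21, 38380027 to 38661780), an ETS transcription factor of blood and endothelial cells, was at 434 and 514 CPM in medium. With GapmeRs it was at 348 to 441 CPM (median 388) and below the same-numbered medium sample in all 17. Its group-fit log2 difference was -0.24 (SE 0.0358, adj. p-value 1.04e-05), with single GapmeRs between -0.36 and -0.19. SLC51A, a subunit of a bile acid and steroid transporter, was at 71.3 and 80.7 CPM in medium and at 53.7 to 70.4 CPM with GapmeRs, with no overlap (-0.28, SE 0.0448, adj. p-value 4.06e-05). DESeq2 called these 2 genes lower (adj. p-values 0.00363 and 0.0396). The RNA polymerase III transcript 7SK had the lowest pooled log2 fold change among genes tested, -2.16 (adj. p-value 0.231). It was at 11.6 CPM in medium replicate 1, at 1.46 CPM in medium replicate 2 and at 0.343 to 2.95 CPM with GapmeRs, so that 1 medium library carried the difference.

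The largest decreases among the 501 genes were uneven across GapmeRs. WWOX (chromosome 16, 78099400 to 79212667), a gene at a common fragile site, was at 46.5 and 41.3 CPM in medium and at 7.75 to 40.8 CPM with GapmeRs (median 32.0). Its group-fit log2 difference was -1.09 (SE 0.0595, adj. p-value 3.86e-16), whereas single GapmeRs ran from -2.23 with lnc-ASTN1-1 GapmeR1 to -0.12 with NTC. DMD (chromosome X, 31097677 to 33339609), the dystrophin gene, was at 11.1 CPM in both medium samples and at 2.41 to 10.5 CPM with GapmeRs (-0.82), from -2.11 with lnc-NKX2-3-1 GapmeR1 to -0.10 with NTC. PTPRK, a receptor tyrosine phosphatase, was at 335 and 355 CPM in medium and at 113 to 310 CPM with GapmeRs, with its lowest level under lnc-RTN4R-1 GapmeR1 (-0.39, adj. p-value 1.99e-09). FBN2, a fibrillin, was at 138 and 154 CPM in medium and at 53.7 to 135 CPM with GapmeRs (-0.48, adj. p-value 2.28e-09). All 4 had every GapmeR sample below both medium samples, and the pooled test gave them adj. p-values of 0.951 to 0.982. In the group fit all 4 were called without any single GapmeR, and the difference of PTPRK became -0.24 without lnc-RTN4R-1 GapmeR1.

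The share of protein-coding genes below medium with every GapmeR was highest among the longest genes. The median genomic span of protein-coding genes was 32.6 kb for all tested, 24.5 kb for the same-side genes above medium and 40.0 kb for those below. For the 501 genes the medians were 24.9 kb for the 270 protein-coding genes higher and 121 kb for the 186 lower. Without lnc-NKX2-3-1 GapmeR1 the lower genes among them became 125 instead of 222 and the higher ones 223 instead of 279, and the median span of the 108 protein-coding lower genes was 127 kb. Of 141 tested protein-coding genes over 500 kb, 33 (23.4%) lay below medium with every GapmeR and 2 (1.42%) above. In genes under 10 kb the shares were 5.59% and 10.7% of 2326. The median exonic length differed less, 5.37 kb for all tested and 7.0 kb for the lower genes among the 501.

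The size of this decrease depended on the GapmeR. The median log2 difference of the 141 genes from medium was -0.02 with NTC, where 74 were negative and 0 were called. It was -0.80 with lnc-NKX2-3-1 GapmeR1 (130 negative, 95 called lower), -0.43 with lnc-RTN4R-1 GapmeR2 (120 negative, 70 called lower) and -0.15 with lnc-ASTN1-1 GapmeR1 (106 negative, 27 called lower). With the other 5 GapmeRs it was between -0.09 and -0.07. The values of replicates 1 and 2 lay close together, -0.81 and -0.80 with lnc-NKX2-3-1 GapmeR1 and -0.35 and -0.47 with lnc-RTN4R-1 GapmeR2. The pattern was noticed in these data and carries no test.

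**Figure D4:**
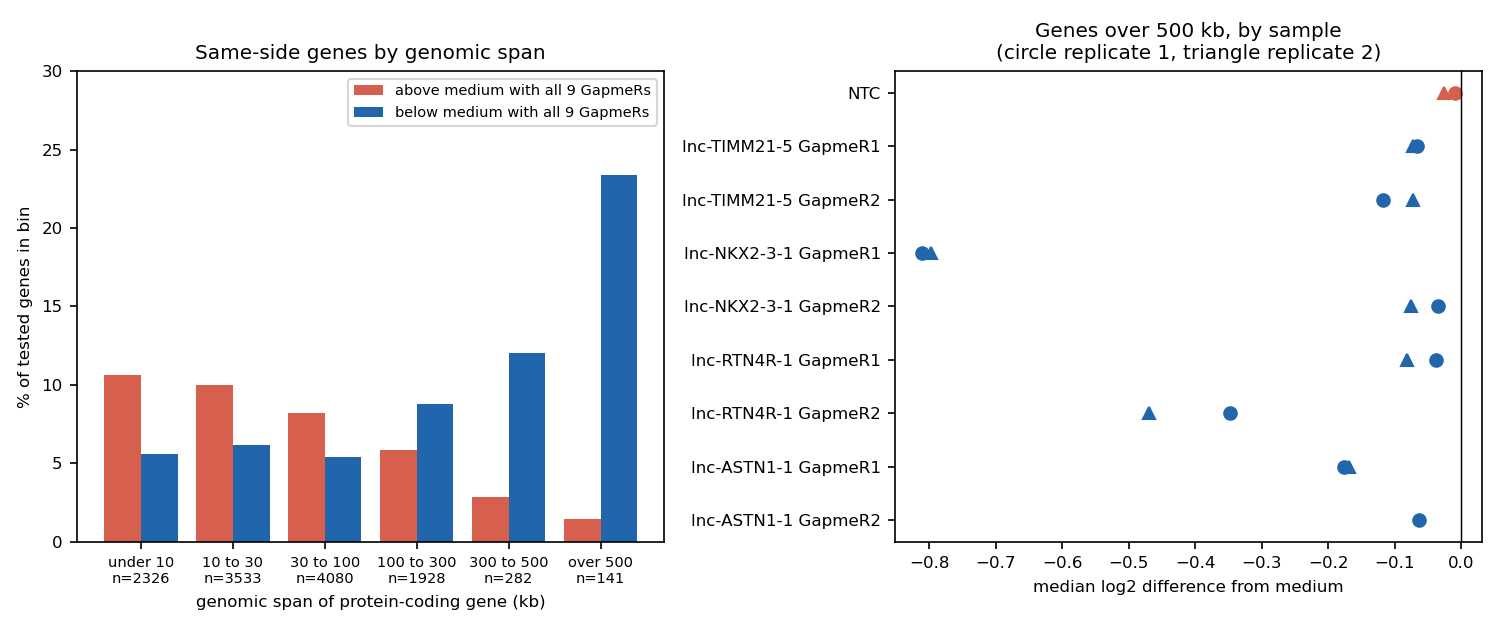
Left, share of tested protein-coding genes (y axis, %) that lay above (red) or below (blue) medium with all 9 GapmeRs, by genomic span (x axis, kb); right, median log2 difference from medium of the 141 genes over 500 kb (x axis) in each GapmeR sample, circles for replicate 1 and triangles for replicate 2, NTC in red. The share below medium reaches 23.4% over 500 kb, and the lnc-NKX2-3-1 GapmeR1 and lnc-RTN4R-1 GapmeR2 samples lie farthest below 0.

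Each GapmeR was also compared with medium in the group fit, always against the same 2 medium samples. NTC differed in 5 genes (0.0313% of those tested), with 1272 at an unadjusted p-value under 0.05. ARRDC3 and KCNJ2, an inward rectifier potassium channel, were higher, and TBC1D9, SORBS2 and the pseudogene ACTG1P22 were lower. ACTG1P22 resembles an actin gene, so its counts are uncertain. KCNJ2 was at 9.03 and 8.14 CPM in medium and at 7.54 to 19.6 CPM over all GapmeRs (NTC log2 difference 0.60, adj. p-value 0.0450). TBC1D9, a Rab GTPase-activating protein, was at 31.5 and 41.6 CPM in medium and at 17.6 to 32.4 CPM over all GapmeRs. It was below the same-numbered medium sample in all 17 (NTC log2 difference -0.43, adj. p-value 0.0254). Without the replicate block NTC differed in 0 genes.

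The targeting GapmeRs differed in more genes: lnc-TIMM21-5 GapmeR1 in 371 (2.33%) and GapmeR2 in 133 (0.834%), lnc-NKX2-3-1 GapmeR1 in 5001 (31.3%) and GapmeR2 in 375 (2.35%). The GapmeRs against lnc-RTN4R-1 differed in 1061 (6.65%) and 2219 (13.9%) genes, and those against lnc-ASTN1-1 in 466 (2.92%) and, with 1 sample, 21 (0.132%). Of the 501 genes, 2 were called in the same direction with NTC, 79 with lnc-TIMM21-5 GapmeR2 and 429 with lnc-NKX2-3-1 GapmeR1. Of these genes 0 were called with all 9 GapmeRs, 6 were called with 8, and 3 with no single GapmeR. The median log2 difference of the 279 higher genes was 0.19 with NTC and 0.25 to 0.46 with the targeting GapmeRs, and that of the 222 lower genes was -0.10 with NTC and -0.65 to -0.16 with the targeting GapmeRs. The 501 genes were chosen by the mean of the 9 GapmeRs, so neither the signs nor the sizes of these medians are independent of the selection, and GapmeRs with many called genes weigh more in it.

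**Figure D5:**
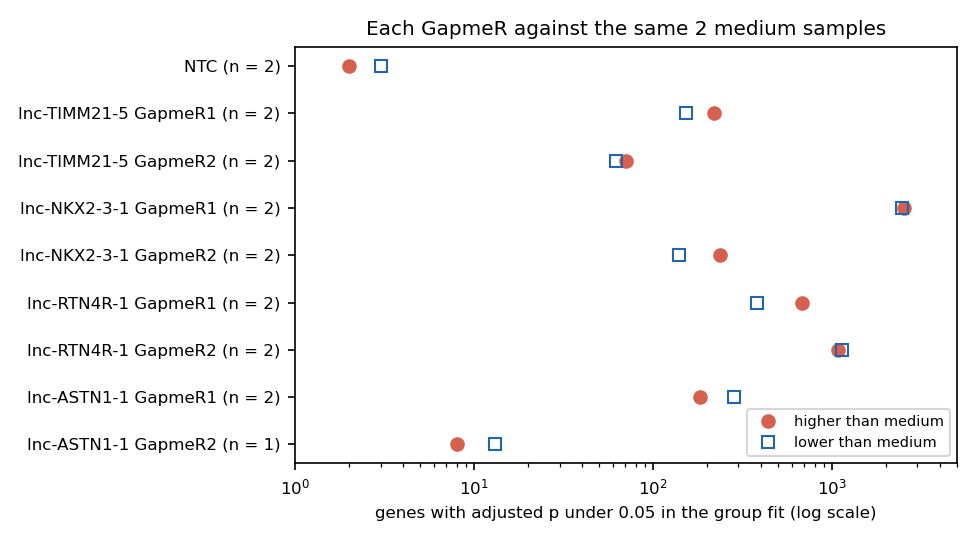
Number of genes with an adjusted p-value under 0.05 against medium (x axis, log scale) for each GapmeR (y axis, with its number of samples); red circles, higher than medium; blue squares, lower. NTC has 2 higher and 3 lower, and lnc-NKX2-3-1 GapmeR1 has 2532 higher and 2469 lower.

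The last question was whether the GapmeRs differed from each other, which was tested without the medium samples in the contrast. Among the 9 GapmeRs 6668 genes differed (41.8%). Of the 2433 same-side genes 783 (32.2%) were among them, and of the 501 genes 421 (84.0%). Both sets were chosen with the same GapmeR samples, so neither share is independent of that choice. The mean of the 8 targeting GapmeRs differed from NTC in 640 genes (4.01%), of which 202 were higher (1.27%) and 438 lower (2.75%). Of the 501 genes 142 were called (28.3%): 55 of the 279 higher genes were higher still with the targeting GapmeRs than with NTC, 87 of the 222 lower genes were lower still, and 0 went the other way. This contrast and the group fit share the targeting GapmeR and NTC samples, so the count is not independent of the choice of the 501. IL4R, DENND3, CD69, ATF3 and ERG did not differ in this contrast past the threshold (adj. p-values 0.443, 0.180, 0.314, 0.383 and 0.647), and IL4R did not pass the test among the 9 GapmeRs either (adj. p-value 0.268).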

How the data were processed

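Per the labels, the authors sequenced stranded, ribodepleted total RNA of REH cells, whereas the methods name poly-A selection, and which RNAs the counts can show depends on this. The authors aligned reads to hg38 with STAR, and the deposited values are raw counts of uniquely mapped reads per gene, unstranded and for both strands. The fourth column, with 95.2% to 95.4% of the stranded counts per sample, was used, with the unstranded counts as an alternative. Genes with near-identical copies can be undercounted. Symbols, types and coordinates came from GENCODE release 44, which matched 56434 of 60619 identifiers, lncRNA identifiers from the study's own list, and promoters from RefSeq.

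Samples were grouped by the labels. The main test was the quasi-likelihood F test of edgeR (4.0.16, in R 4.3.3) on counts with TMM factors, after filterByExpr (minimum count 10, total 15), with the replicate number as a block, in a pooled design (17 GapmeR against 2 medium samples, 16 residual degrees of freedom) and in a group design with 1 coefficient per GapmeR (8 residual degrees of freedom). Adj. p-values are Benjamini-Hochberg values over all genes tested, with a threshold of 0.05. With 1 or 2 samples per GapmeR, p-values rest on a spread shared by all groups, and it is not stated whether this spread includes separate cultures beyond the day. CPM were scaled with the TMM factors, and a prior count of 2 was added for log2 CPM. The block follows the replicate number. The methods place the replicates on different days but do not state that equal numbers share a day. Deviations of replicates 1 and 2 correlated at 0.17 on average over 36 pairs of groups (0.0788 to 0.258). The fits were tested on simulated data without differences among GapmeRs or between replicate numbers, so that test cannot show which fit suits these data. DESeq2 (1.42.0), RLE, 2 other filters, no block and leave-outs were alternatives. The 2 medium samples enter every contrast with medium.

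Genes were to be named as the 12 largest and a further 5 per direction called in the pooled test, the 3 smallest p-values in each of 19 gene lists, the target lncRNAs, and the 5 called genes with the smallest p-values against NTC. The pooled test called 0, so genes outside the lists were named from the group fit, DESeq2 and NTC after their values were seen. The comparison, the gene lists and the rule were chosen with earlier results of these data known.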

Additional observations from a re-analysis of the deposited data

Results flagged for a closer look

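Some genes differed from medium by different amounts with the targeting GapmeRs and with NTC, by the edgeR test of the difference itself. Each value below is the log2 difference of the mean of the 8 targeting GapmeRs from NTC, with an adj. p-value under 0.05 over all genes tested. Those higher with the targeting GapmeRs were STING1 (0.38), CXCL8 (0.81), HSPA5 (0.21), KIF20A (0.19), RRM2 (0.13), CSF1R (1.08), TBC1D10C (1.11), PSD4 (0.78), SH3TC1 (0.39), RASAL3 (0.34), PTPN7 (0.48), ACTG1P22 (1.101) and IER2 (0.19). Of these, CSF1R, CXCL8, PSD4, TBC1D10C and ACTG1P22 fell to 0.336, 0.814, 1.70, 1.90 and 2.30 CPM in their lowest samples. ACTG1P22, whose counts are uncertain because it resembles an actin gene, was called lower with NTC against medium. Those lower with the targeting GapmeRs were BCL2 (-0.13), PECAM1 (-0.34), WWOX (-1.10), ANK3 (-0.71), DMD (-0.82), DDIT4L (-0.67), RPS8P6 (-0.69), PTPRM (-0.38), ABCA4 (-0.41), PKD1L2 (-0.35), PTPRK (-0.21), FBN2 (-0.27), BLACE (-0.37), CSMD1 (-0.38), LDB2 (-0.38), CUX1 (-0.27) and GNG7 (-0.30). The target lncRNAs LINC02891 (-0.49) and ENSG00000227579 (-0.50) were lower too, and 2 of the 8 targeting GapmeRs are directed at each. Against medium, ENSG00000227579 was also called lower with lnc-NKX2-3-1 GapmeR1 (-0.50), lnc-RTN4R-1 GapmeR1 (-0.54) and lnc-RTN4R-1 GapmeR2 (-0.71). It was not with either lnc-TIMM21-5 GapmeR (-0.07 and -0.06) or lnc-NKX2-3-1 GapmeR2 (-0.003). LINC02891 was also called lower with lnc-NKX2-3-1 GapmeR1 (-0.46), and ran from -0.19 to 0.02 with the other GapmeRs directed elsewhere. Some of the differences from NTC listed here rested on few of the targeting GapmeRs. Against medium, CUX1 was at -1.16 with lnc-NKX2-3-1 GapmeR1, -0.51 with lnc-RTN4R-1 GapmeR2, -0.25 to -0.11 with the other targeting GapmeRs and -0.06 with NTC. ANK3 was at 0.500 and 0.310 CPM with lnc-NKX2-3-1 GapmeR1, 3.68 and 4.60 CPM with lnc-ASTN1-1 GapmeR1 and 3.98 and 4.21 CPM with NTC. BCL2 was higher with lnc-NKX2-3-1 GapmeR1 (344 and 365 CPM) than with NTC (330 and 347 CPM). The GapmeR groups had 2 samples or 1, so no sample could be examined as an outlier within its group.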

How the results depend on the processing

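The pooled test called 0 genes with RLE, at least 10 counts in every sample, no replicate block, unstranded counts, or either medium sample left out. It called 2 with no low-count filter (DENND3 higher, RNU4-1 lower), 15 with DESeq2 and 799 as the mean of the 9 GapmeRs in the group fit, and NTC alone had 5 in that fit. Leave-one-out counts ran from 0 to 2: IL4R and SH3TC1 were called without NTC, IL4R and CD69 without lnc-NKX2-3-1 GapmeR1, and 7SK alone (1 gene) without replicate 2. The 501 genes became 177 with no replicate block, 234 without medium replicate 1 and 137 without medium replicate 2, and 348 to 599 without single GapmeRs, with 125 lower genes in place of 222 without lnc-NKX2-3-1 GapmeR1. These settings, with DESeq2 (342), were chosen after seeing the data, like those for the immediate-early list, whose median pooled log2 fold change was 0.62 without medium replicate 1 and 0.29 without medium replicate 2, with 17 of 22 positive. Same-side genes were 585 when every GapmeR sample had to lie on that side and 242 when every GapmeR sample had to lie outside both medium samples.

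The replicate block decided most single comparisons with medium. Without it, counts were 0 for NTC, 37 and 17 for both GapmeRs against lnc-TIMM21-5, 3307 and 15 against lnc-NKX2-3-1, 407 and 1166 against lnc-RTN4R-1, and 199 and 6 against lnc-ASTN1-1, with 3425 among GapmeRs and 184 for targeting GapmeRs against NTC. With no low-count filter they were 51 for NTC, 208 for lnc-TIMM21-5 GapmeR2 and 73 for lnc-ASTN1-1 GapmeR2. The other counts stayed within 1.5 times. The 2 medium samples limit every comparison with medium, and depth limits genes under about 1 CPM.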

Other observations

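lnc-NKX2-3-1 (ENSG00000228778) was at 0.371 to 0.920 CPM in the 13 samples given GapmeRs directed elsewhere, with 0.903 and 1.25 CPM in medium, and lay below medium with all 9 GapmeRs. Its log2 difference from medium with NTC was -0.73 (SE 0.398, adj. p-value 0.668). PES1, a factor of ribosome assembly, was at 105 and 119 CPM in medium and at 90.2 to 112 CPM with GapmeRs. It was below the same-numbered medium sample in 16 of 17 GapmeR samples. SNORD3A, a small nucleolar RNA, was at 2.13 CPM in medium replicate 1 and at 0.163 CPM in medium replicate 2, with 0.0929 to 0.791 CPM with GapmeRs, so that medium replicate 1 stood apart as it did for 7SK.

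Several higher genes outside the lists were led by 1 GapmeR. TBC1D10C, which inhibits Ras and calcineurin in lymphocytes, was at 2.18 and 1.90 CPM in medium and at 2.10 to 18.5 CPM with GapmeRs, with a log2 difference of 3.03 for lnc-NKX2-3-1 GapmeR1 and 0.41 for NTC. P2RY14, a receptor for UDP-sugars, was at 1.38 and 1.25 CPM in medium and at 2.005 to 9.43 CPM with GapmeRs, with 2.70 for lnc-RTN4R-1 GapmeR2 and 0.84 for NTC. MSX1, a homeobox factor, was more even, at 2.66 and 2.55 CPM in medium and 3.34 to 4.68 CPM with GapmeRs (group-fit log2 difference 0.63, adj. p-value 0.00595).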
